A study of Mus musculus with 8 samples.

Results

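The GDNF family of ligands and receptors was represented by 10 genes of the 19938 genes measured, namely the 4 ligand genes Gdnf, Nrtn, Artn and Pspn, the 4 co-receptor genes Gfra1, Gfra2, Gfra3 and Gfra4, the receptor tyrosine kinase gene Ret and the adhesion molecule gene Ncam1. They were chosen by name. Each had exactly 1 probe set that carried its symbol alone in the platform annotation, so no choice between probe sets was needed. By RefSeq (GRCm38.p6), Gfra4 lies on mouse chromosome 2, Artn on 4, Ret on 6, Ncam1 on 9, Gfra2 on 14, Gdnf on 15, Nrtn and Pspn on 17, Gfra3 on 18 and Gfra1 on 19. The study used 8 arrays, each with RNA from cultured mouse spermatogonial stem cells, in 3 groups. The serial-transplant long-culture group (2 arrays) is a line passed on by transplantation, labelled with a donor age of 1500 days, after 14 to 18 months in culture. The 8-day-donor long-culture group (3 arrays) spent the same 14 to 18 months in culture, and the 8-day-donor short-culture group (3 arrays) spent 7 to 10 weeks. Only the serial-transplant group has the old donor label, so donor age and transplantation cannot be told apart. The labels give no strain, medium or feeder layer, and they are silent on whether replicates are separate donors or cultures. The p-values therefore rest on the spread among these arrays alone, and that spread may be technical.

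Glial cell line-derived neurotrophic factor (GDNF) and its relatives neurturin, artemin and persephin are secreted ligands that bind a co-receptor of the GFRA family, which is held on the cell surface by a glycosylphosphatidylinositol (GPI) anchor. The ligand and its co-receptor then bring together RET molecules, whose kinase domains switch on the RAS-MAP kinase, PI3 kinase-AKT and SRC-family pathways, and NCAM can act as an alternative signalling partner of GFRA1. In the testis, Sertoli cells and peritubular myoid cells secrete GDNF, undifferentiated spermatogonia carry GFRA1 and RET, and the signal maintains self-renewal of the stem cells in the animal and in culture.

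The promoter windows of Gdnf and Gfra1 are shown because Gdnf was the only ligand gene to pass a test and Gfra1 encodes the co-receptor that binds GDNF. The RefSeq promoter table (build GRCm38.p6), with 250 bases before and 50 bases after each start, held 8 windows for 6 members, which were Gdnf, Nrtn, Artn, Pspn, Gfra1 and Gfra4. Capitals mark the TATA box (TATAAA) and the core of the cAMP response element (TGACGT), each searched on both strands. A GC box (GGGCGG) was searched too and is absent from the letters of these 3 windows. None of these motifs overlapped another.
Gdnf, first start, chr15:7809798-7810097, plus strand: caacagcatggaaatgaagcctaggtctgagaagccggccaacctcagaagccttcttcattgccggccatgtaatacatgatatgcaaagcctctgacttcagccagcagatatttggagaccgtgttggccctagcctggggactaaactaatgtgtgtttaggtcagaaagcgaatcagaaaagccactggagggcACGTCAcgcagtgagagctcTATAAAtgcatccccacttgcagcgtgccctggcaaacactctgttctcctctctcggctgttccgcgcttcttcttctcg
Gdnf, second start, chr15:7813477-7813776, plus strand: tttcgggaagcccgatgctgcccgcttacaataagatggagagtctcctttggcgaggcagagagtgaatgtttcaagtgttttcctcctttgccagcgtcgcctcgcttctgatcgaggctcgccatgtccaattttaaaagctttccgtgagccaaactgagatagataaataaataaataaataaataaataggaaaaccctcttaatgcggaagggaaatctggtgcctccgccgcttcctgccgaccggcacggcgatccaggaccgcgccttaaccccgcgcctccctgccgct
Gfra1, chr19:58455349-58455648, minus strand: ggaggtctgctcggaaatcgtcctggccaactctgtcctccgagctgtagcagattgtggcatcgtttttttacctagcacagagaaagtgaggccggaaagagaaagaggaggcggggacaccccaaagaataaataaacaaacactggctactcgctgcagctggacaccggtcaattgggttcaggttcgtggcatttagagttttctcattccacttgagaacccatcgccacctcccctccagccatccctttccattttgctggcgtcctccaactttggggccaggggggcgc
The first Gdnf window holds 1 TATA box, which begins 31 bases before the start, and 1 cAMP response element core, read from the opposite strand. The other Gdnf window and the Gfra1 window hold neither. Of all 32851 windows in the table, 13.6% hold a TATA box, 7.51% a cAMP response element core and 35.7% a GC box. The annotation of the Gdnf probe set lists 1 of the 4 curated Gdnf transcripts. From which start its signal comes was not determined. The Ret probe set lists both curated transcripts of Ret, and the Ncam1 probe set lists 3 of 4.

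Values are log2 signals, and each unit is a doubling. The median of all 28943 probe sets tested was 6.94, which served as a mark of dim signals, since the method behind the values (RMA) gives no detection call. Array medians ran from 6.90 to 6.98. The labelled cell type was checked on 11 markers of undifferentiated spermatogonia and 5 core germ cell markers, all measured. The mean log2 signal of the core germ cell markers was 10.91 to 10.99 in serial-transplant arrays, 10.50 to 10.74 in 8-day-donor long-culture arrays and 10.30 to 10.66 in short-culture arrays, and that of the undifferentiated markers lay between 8.62 and 8.96 on every array. Fibroblast markers were present as well, at mean log2 signals of 8.87 to 9.38, 9.33 to 9.34 and 9.85 to 10.32 in the same order of groups. Short-culture replicate 2 had the lowest array weight (0.328) of the 8 arrays and the highest fibroblast signal.

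The members split into 2 bright receptor genes and 8 dimmer genes. Gfra1 stood at or above percentile 96.1 of the probe sets of every array and Ret at or above percentile 89.8. The ligand genes Artn, Pspn and Gdnf lay between percentiles 31.9 and 51.8, and the other 5 members between 52.1 and 69.4. These percentiles also depend on how well each probe set hybridises, so they do not rank the amounts of the transcripts. Over the 8 arrays, Ret (1.44) and Gfra2 (1.31) had the widest ranges on the log2 scale among the 10 members, wider than those of 96.9% and 96.0% of all probe sets, and Gfra4 (0.34) had the narrowest, wider than that of 22.6%.

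**Figure D1:**
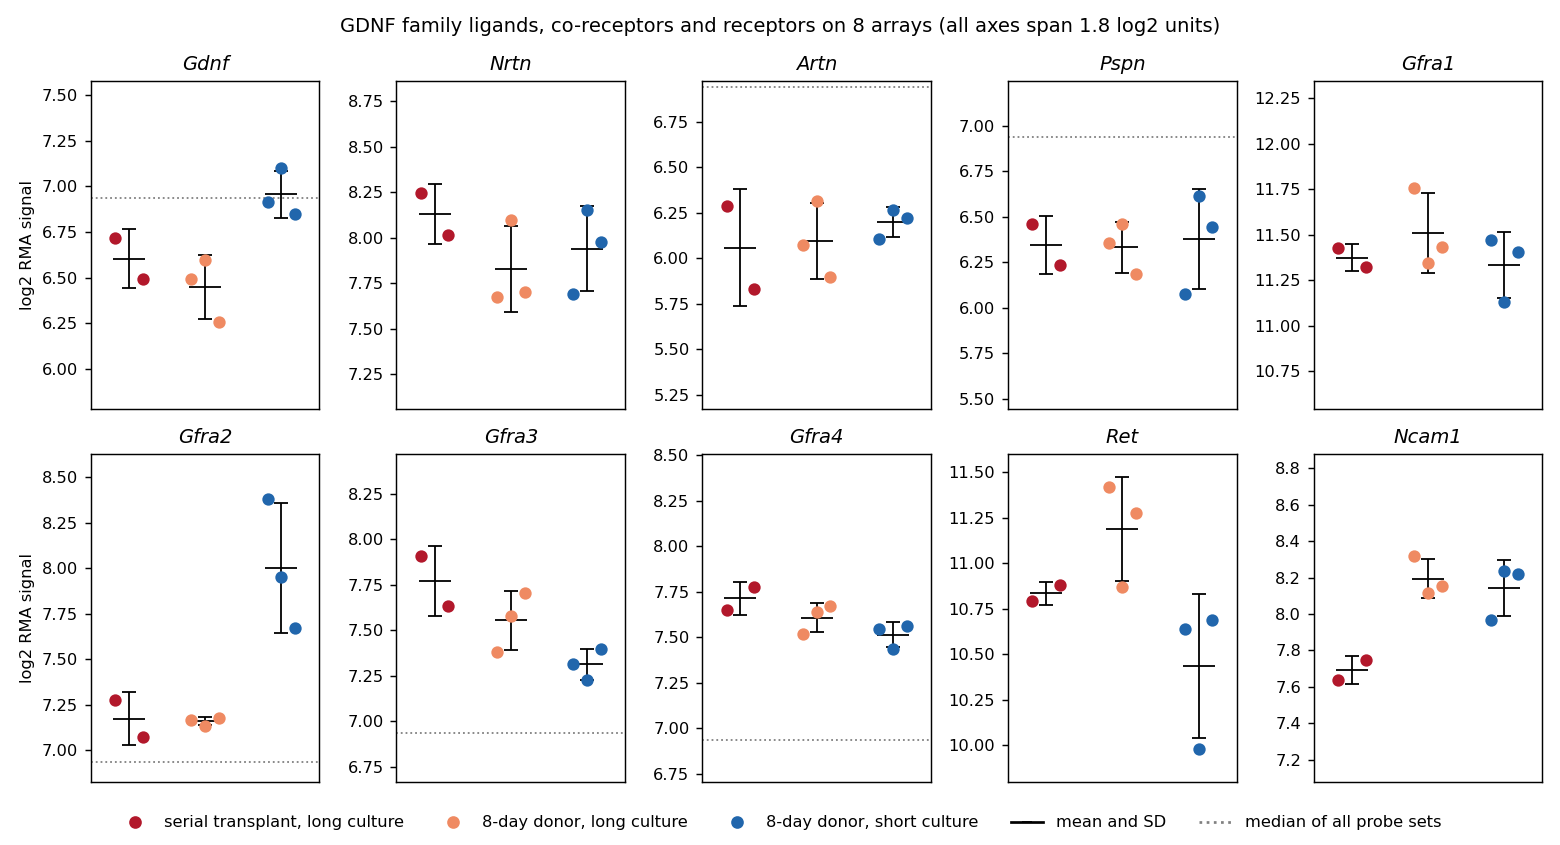
Log2 RMA signal of the 10 members, 1 point per array, in serial-transplant long culture (2 arrays), 8-day-donor long culture (3) and 8-day-donor short culture (3), left to right, with group means and SD as horizontal marks and error bars. Every vertical axis spans the same number of log2 units and the dotted line, where it falls in a panel, is the median of all probe sets, 6.94. Gdnf and Gfra2 lie lower on all 5 long-culture arrays than on any short-culture array, and Ncam1 is lowest on both serial-transplant arrays.

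Long culture of cells from 8-day donors, set against short culture of the same kind of cells, asks what the added months in vitro do at the same donor age. Gdnf and Gfra2, the co-receptor gene whose product prefers neurturin, fell, and Ret rose, while the other 7 members did not pass the test. With limma and an adjusted p (Benjamini-Hochberg over all probe sets) under 0.05 as the call, 3 of 10 members were called, against 11.3% of all probe sets tested. By direction these were 1 higher member against 5.43% of probe sets and 2 lower members against 5.83%. The long- and short-culture arrays did not overlap in the same 3 members, against 31.4% of all probe sets (15.1% higher and 16.3% lower). The median difference of the 10 members was 0.0033 log2, beside -0.04 over all probe sets. The share of members called is above that of all probe sets, but 10 genes chosen by name are few, and the share of members whose groups do not overlap is near the background.

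Serial-transplant cells in long culture, set against 8-day-donor cells in short culture, differ in donor, transplantation and culture time together. Gfra2 and Ncam1 fell, and no member rose. The 2 calls among 10 members stand beside 8.73% of all probe sets, of which 3.58% were higher and 5.15% lower. The groups did not overlap for 6 members, with Gfra3, Gfra4 and Ret higher and Gdnf, Gfra2 and Ncam1 lower in serial-transplant cells, against 37.3% of all probe sets (18.9% higher and 18.4% lower). The median difference of the members was 0.0045, beside -0.0032 over all probe sets. This comparison shares its short-culture arrays with the one before, so the fall of Gfra2 in both is not an independent observation.

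Within long culture, serial-transplant cells and 8-day-donor cells differ in donor age and transplantation. None of the 10 members passed, and limma called 0% of all probe sets. Without adjustment, 1 member, Ncam1, had a p under 0.05, against 7.18% of all probe sets (2079 of 28943). Ncam1 was also the only member whose groups did not overlap, against 25.7% of all probe sets. Array weights brought the count over all probe sets to 22, and a fit of these 5 arrays alone brought it to 15, with no member among them in either fit. The intervals of the 10 differences ran from -0.82 at the lowest, for Ret, to 0.67 at the highest, for Nrtn, so changes of that size were not shown to be absent.

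**Figure D2:**
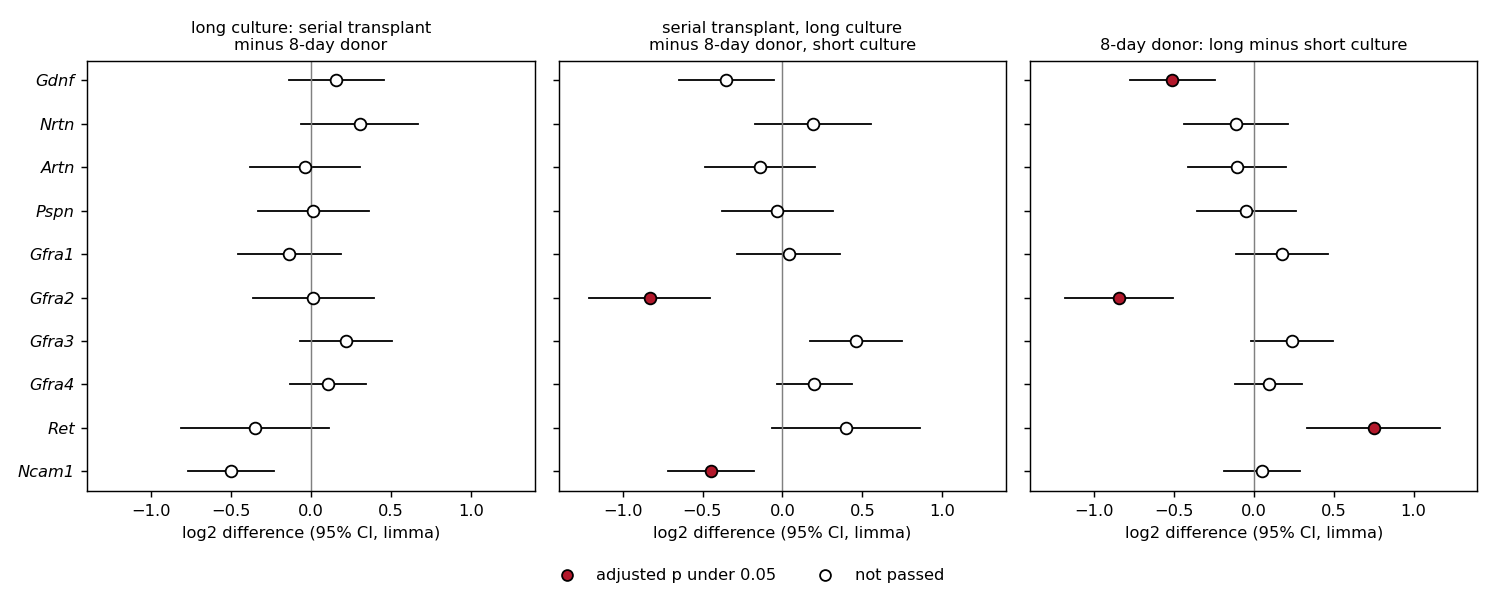
Log2 difference of each member with its 95% confidence interval from limma, in serial-transplant minus 8-day-donor long culture, serial-transplant long minus 8-day-donor short culture, and long minus short culture of 8-day donors. Filled points passed an adjusted p of 0.05. Gfra2 is filled in both comparisons with short culture at -0.83 and -0.84, Ncam1 at -0.45 in serial-transplant against short culture, and Gdnf (-0.51) and Ret (0.75) in the comparison of 8-day-donor cells.

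Among the ligand genes, Gdnf had log2 signals of 6.72 and 6.49 in serial-transplant arrays, 6.49, 6.60 and 6.25 in 8-day-donor long culture, and 6.91, 7.10 and 6.85 in short culture. All 5 long-culture arrays lay below all 3 short-culture arrays, and 7 of the 8 values were under the median of all probe sets. Within 8-day donors, Gdnf averaged 6.45 ± 0.18 in long and 6.96 ± 0.13 in short culture (SD, n = 3 each). That is 1.42-fold lower after long culture, with a log2 difference of -0.51 (SE 0.12, 95% CI -0.77 to -0.24, limma adjusted p = 0.0225). The call did not survive leaving out long-culture replicate 1 (adjusted p = 0.0618), long-culture replicate 3 (0.106) or short-culture replicate 2 (0.0571), with differences of -0.58 to -0.41 over the 6 arrays left out in turn. Nor did it survive keeping the rows taken to be controls (adjusted p = 0.0596). In serial-transplant cells Gdnf stood at -0.35 relative to short culture (adjusted p = 0.149) and at 0.16 relative to 8-day-donor long culture (adjusted p = 0.860). Array background takes up more of a dim signal and can shrink a fold change. Without a detection call, a signal this dim may also be mostly background. Neither was tested.

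Like Gdnf, the fibroblast markers were lower in long than in short culture by group means. All 12 were measured and none had a positive difference in either comparison with short culture, with 8 passing as lower in serial-transplant cells and 9 in 8-day-donor long culture. Of all probe sets, 5.15% and 5.83% were called lower in these comparisons. Lum was under the lower quartile of every array. The summed linear signal of the list was 12598 to 18514 in serial-transplant arrays, 18436 to 18915 in 8-day-donor long-culture arrays and 27846 to 40009 in short-culture arrays. The short-culture array with the highest fibroblast signal, replicate 2, also had the highest Gdnf signal. Among long-culture arrays the lowest values fell on different arrays. Serial-transplant replicate 2 had the lowest fibroblast mean (8.87) with Gdnf at 6.49. The lowest Gdnf, 6.25 in 8-day-donor replicate 3, came with a fibroblast mean of 9.33. The part of fibroblasts in the fall of Gdnf was not tested, and in bulk RNA fewer cells of a type and less RNA per cell cannot be told apart. The count of fibroblast genes that fell in 8-day-donor cells was 5, 5 and 3 without long-culture replicates 1, 2 and 3, and that in serial-transplant cells was 0 without serial-transplant replicate 2.

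Markers of the testis cells that secrete GDNF were mostly dim. Of 10 measured Sertoli cell genes, 4 had group means brighter than 6.94 in every group. Amh averaged 5.91, 5.90 and 6.06 and Fshr 5.48, 5.55 and 5.49 in serial-transplant, 8-day-donor long and 8-day-donor short culture. The mean log2 signal of the Sertoli list was 6.80 to 7.04, 6.90 to 7.04 and 7.04 to 7.20 in the same order. In both comparisons with short culture 1 Sertoli gene rose and 1 fell. Of all probe sets, 8.73% passed in serial-transplant cells and 11.3% in 8-day-donor cells. Wt1, a transcription factor of Sertoli cells, rose by 0.73 in serial-transplant cells and by 0.90 in 8-day-donor long culture, Sox9, a testis-determining factor, fell in serial-transplant cells (-1.07) and Nr5a1, a steroidogenic regulator, in 8-day-donor long culture (-0.51). Single arrays decided the call of Sox9 (serial-transplant replicate 2), of Nr5a1 (long-culture replicates 1 and 3) and of Wt1 in serial-transplant cells (any array but short-culture replicate 3). The list of 5 peritubular myoid cell genes had a mean log2 signal of 6.39 to 6.54, 6.37 to 6.55 and 6.52 to 6.78, and Acta2, which it shares with the fibroblast list, was its only gene that fell, while Myh11, a smooth muscle myosin, rose in 8-day-donor long culture (0.50).

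The other 3 ligand genes did not pass in any comparison. Nrtn, which encodes neurturin, had log2 signals of 8.24 and 8.01 in serial-transplant arrays, 7.67, 8.10 and 7.70 in 8-day-donor long culture, and 7.69, 8.15 and 7.98 in short culture, and its groups overlapped throughout. Its differences were 0.30 between the long cultures (95% CI -0.06 to 0.67), 0.19 between serial-transplant and short-culture cells (-0.17 to 0.56) and -0.11 between long and short culture of 8-day donors (-0.44 to 0.21). Artn, which encodes artemin, ran from 5.83 to 6.31 and Pspn, which encodes persephin, from 6.07 to 6.61 over the 8 arrays, all below the median of all probe sets. Their differences had sizes of at most 0.14 and no settled direction, since several changed sign with the processing or with an array left out.

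Among the co-receptor genes, Gfra1, which encodes the co-receptor of GDNF, was bright everywhere and passed no test. Its log2 signals were 11.43 and 11.32 in serial-transplant arrays, 11.76, 11.34 and 11.43 in 8-day-donor long culture, and 11.47, 11.13 and 11.40 in short culture. The groups overlapped in all comparisons. The difference was 0.18 between long and short culture of 8-day donors (95% CI -0.11 to 0.46, limma adjusted p = 0.438), 0.04 between serial-transplant and short-culture cells (-0.28 to 0.36), and -0.14 between the long cultures (-0.46 to 0.19). Among the ends of these intervals, the farthest from 0 allows a change of 1.38-fold.

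Gfra2 showed the most stable difference of the family. Its log2 signals were 7.28 and 7.07 in serial-transplant arrays, 7.17, 7.13 and 7.18 in 8-day-donor long culture, and 8.38, 7.95 and 7.67 in short culture. The 5 long-culture arrays lay close together and below all 3 short-culture arrays, which were more spread. In 8-day-donor cells Gfra2 averaged 7.16 ± 0.02 in long and 8.00 ± 0.36 in short culture (SD, n = 3 each), which is 1.79-fold lower after long culture (log2 difference -0.84, SE 0.15, limma adjusted p = 0.00781). This call held under all 9 other settings and with each of the 6 arrays left out in turn, at adjusted p between 0.00183 and 0.0365.

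In serial-transplant cells, at 7.17 ± 0.14 (SD, n = 2), Gfra2 was 1.78-fold lower than in short culture (log2 difference -0.83, SE 0.17, adjusted p = 0.0143). That call was lost in a fit of these groups alone (adjusted p = 0.0534) and with control rows kept (0.0545). It was also lost without serial-transplant replicate 2, where the log2 difference was -0.73. Between the long cultures the difference was 0.01 (95% CI -0.36 to 0.39). The fibroblast list was lower in the same comparisons, as given above for Gdnf. The mean of the macrophage list of 7 genes was lower too, and 4 of them, Ptprc, Tyrobp, Laptm5 and Fcer1g, passed as lower in each comparison with short culture. Fewer passed in serial-transplant cells without serial-transplant replicate 2. Of all probe sets, 5.15% were called lower in serial-transplant and 5.83% in 8-day-donor cells. Csf1r, Adgre1 and Cd68 did not pass, and Adgre1 was under the lower quartile of every array. The mean log2 signal of the macrophage list was 5.77 to 5.85, 5.63 to 5.75 and 6.48 to 6.92 in serial-transplant, 8-day-donor long and 8-day-donor short culture. Short-culture replicate 1 had the highest Gfra2 signal but not the highest fibroblast signal. The part of the cells behind either list in the fall of Gfra2 was not tested.

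**Figure D3:**
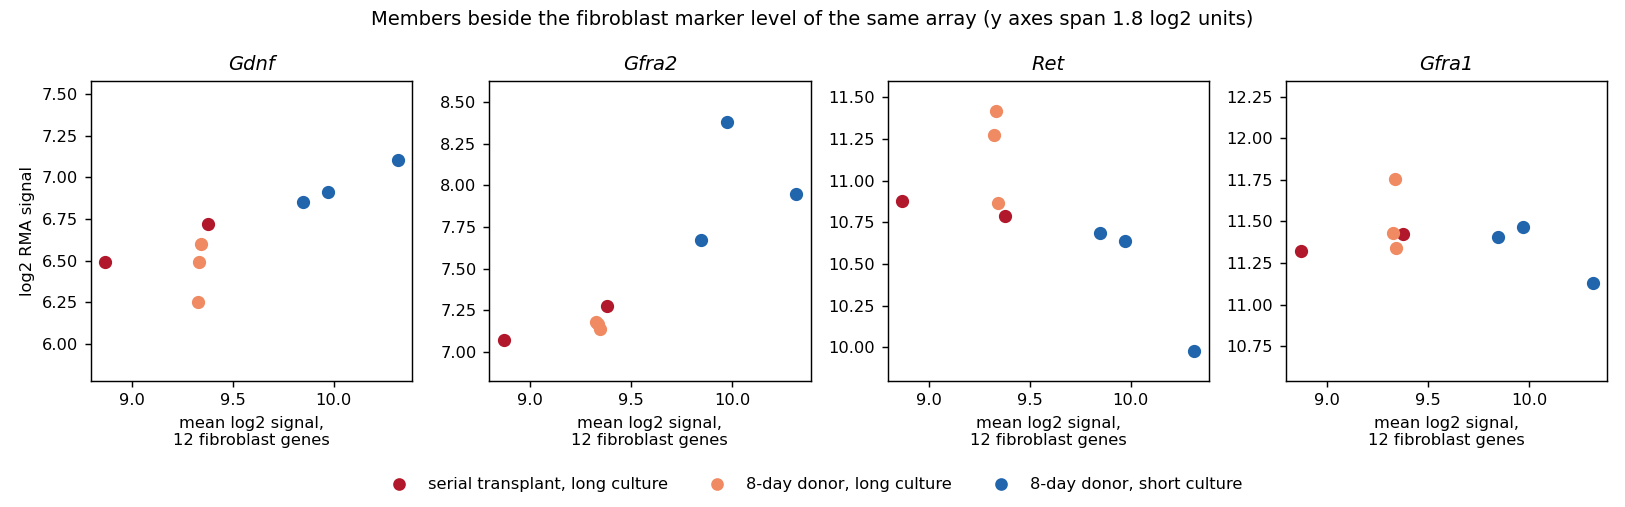
Log2 RMA signal of Gdnf, Gfra2, Ret and Gfra1 (vertical axes, equal spans) against the mean log2 signal of 12 fibroblast genes on the same array (horizontal axes), 1 point per array, coloured by group. The short-culture arrays lie at 9.85 to 10.32 on the horizontal axis, right of the long-culture arrays at 8.87 to 9.38. Gdnf and Gfra2 are higher on the short-culture arrays, Ret is lowest on short-culture replicate 2, and Gfra1 stays between 11.13 and 11.76.

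Gfra3 and Gfra4, whose products bind artemin and persephin, were highest in serial-transplant cells but did not pass. Gfra3 had log2 signals of 7.91 and 7.64 in serial-transplant arrays, 7.38, 7.58 and 7.70 in 8-day-donor long culture, and 7.31, 7.23 and 7.40 in short culture. Both serial-transplant values were above all short-culture values. That difference was 0.46 (SE 0.13, limma adjusted p = 0.0517). It passed in 4 of the 9 other settings and not in the other 5. The 4 were dim probe sets left out (0.0371), quantile normalization (0.0362), median centring (0.0369) and the replicate block (0.0468). It did not pass with any short-culture array left out. The difference ran from 0.32 to 0.60 over the 5 arrays left out in turn. Gfra4 had 7.65 and 7.78 in serial-transplant arrays, 7.52, 7.64 and 7.67 in 8-day-donor long culture, and 7.55, 7.44 and 7.56 in short culture. Its difference between serial-transplant and short-culture cells was 0.20 (95% CI -0.04 to 0.44, adjusted p = 0.321).

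Ret, the kinase shared by all 4 co-receptors, had log2 signals of 10.79 and 10.88 in serial-transplant arrays, 11.42, 10.87 and 11.27 in 8-day-donor long culture, and 10.64, 9.98 and 10.69 in short culture. All 5 long-culture arrays were above all short-culture arrays, and 1 of the 8-day-donor long-culture arrays lay among the serial-transplant values. The order of the group means was 8-day-donor long culture, serial-transplant long culture, short culture, and neighbours in that order did not pass the test. Within 8-day donors Ret averaged 11.19 ± 0.28 in long and 10.44 ± 0.40 in short culture (SD, n = 3 each), a 1.68-fold rise (log2 difference 0.75, SE 0.19, limma adjusted p = 0.0281). Leaving out long-culture replicate 1 (adjusted p = 0.114), long-culture replicate 3 (0.105) or short-culture replicate 2 (0.0540) ended the call, and the difference ran from 0.52 to 0.91 over the 6 arrays left out. Keeping the control rows ended it too (adjusted p = 0.0794). Serial-transplant cells stood at 0.40 relative to short culture (95% CI -0.07 to 0.86, adjusted p = 0.311) and at -0.35 relative to 8-day-donor long culture (-0.82 to 0.11, adjusted p = 0.789). Fibroblast signal was lower in both long-culture groups than in short culture, and its part in the rise of Ret was not tested. Within long culture, serial-transplant replicates 1 and 2 had fibroblast means of 9.38 and 8.87 with Ret at 10.79 and 10.88. In 8-day-donor long-culture replicates 1, 2 and 3 the fibroblast means were 9.34, 9.34 and 9.33, with Ret at 11.42, 10.87 and 11.27. Most markers of differentiating spermatogonia were, like Ret, higher after long culture of 8-day-donor cells by group means, with 4 of 5 called higher and 1 lower. The number higher was 2 without long-culture replicate 2, long-culture replicate 3 or short-culture replicate 1, and 3 with any other single array left out, and Kit and Sohlh2 passed each time. The 1 that was lower, Sohlh1, was lost in 4 of the 6 cases. The mean log2 signal of the list was 9.44 to 9.47 in serial-transplant, 9.13 to 9.43 in 8-day-donor long-culture and 8.53 to 8.89 in short-culture arrays. By array the order differed from that of Ret. Long-culture replicate 1 had the highest Ret (11.42) and the lowest list mean of its group (9.13). The part of these markers in the rise of Ret was not tested. Other germ cell markers also moved after long culture of 8-day-donor cells. Of 11 undifferentiated markers 3 rose and 2 fell, and of 5 core germ cell markers 2 rose and 0 fell. The 2 that fell were Thy1, which is also in the fibroblast list, and Id4, which is also among the GDNF-responsive genes below. Most of these rises were lost with single arrays left out. Of all probe sets, 5.43% were called higher and 5.83% lower.

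Ncam1, the alternative partner of GFRA1 and a surface molecule of many neural cells, was the only member that did not overlap between the long cultures. Its log2 signals were 7.64 and 7.75 in serial-transplant arrays, 8.32, 8.11 and 8.15 in 8-day-donor long culture, and 7.97, 8.24 and 8.22 in short culture. Both serial-transplant values were below the other 6. Of all probe sets, 25.7% did not overlap between the long cultures, with 10.8% lower in serial-transplant cells. Relative to short culture Ncam1 fell 1.36-fold (log2 difference -0.45, SE 0.12, limma adjusted p = 0.0437). That call was lost without any of 4 arrays, both of the serial-transplant line (adjusted p = 0.201 and 0.196) and short-culture replicates 2 (0.0866) and 3 (0.0991). It was also lost in 6 of the 9 other settings. These were trend and robust eBayes (0.0517), quantile normalization (0.0595), median centring (0.0624), control rows kept (0.0917), the replicate block (0.0935) and a fit of these groups alone (0.0943). Relative to 8-day-donor long culture the difference was -0.50 (SE 0.12, 95% CI -0.77 to -0.23), with an unadjusted p of 0.00166 and an adjusted p of 0.378. Between long and short culture of 8-day donors it was 0.05 (-0.19 to 0.29), without a settled sign when arrays were left out. The 7 measured neuron and Schwann cell markers, most of them dimmer than 6.94 in every group (Sox10 and Mbp exceeded it in some), kept a mean log2 signal of 6.15 to 6.31 on every array, and none of them passed in any comparison.

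Genes around the receptors were followed in 4 lists. Among genes that GDNF induces in spermatogonia, 17 of 18 were measured. In serial-transplant cells 5 fell and none rose relative to short culture, with a list median of -0.35 beside -0.0032 over all probe sets. In 8-day-donor cells 5 fell and none rose after long culture, with a median of -0.15 beside -0.04. The background share of probe sets called lower was 5.15% for serial-transplant cells and 5.83% for 8-day-donor cells. Lhx1, a homeobox factor, stood at -1.39 in serial-transplant cells and -1.30 in 8-day-donor long culture, Id4, an inhibitor of DNA binding, at -0.83 and -0.80, and Bcl6b, a transcriptional repressor, at -0.89 and -1.0. Spry4, a feedback inhibitor of receptor tyrosine kinases, fell in both (-0.71 and -0.69). Cxcr4, a chemokine receptor, fell in serial-transplant cells (-0.59), and Egr2, an early response factor, in 8-day-donor cells (-0.73).

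These counts depended on single arrays. In 8-day-donor cells 3 of the 5, Lhx1, Id4 and Bcl6b, passed with each of the 6 arrays left out, whereas Spry4 and Egr2 were each lost in 5 of the 6 cases. In serial-transplant cells the count was 1 without serial-transplant replicate 1, 0 without replicate 2 and 3 without short-culture replicate 1. Etv5, a GDNF-induced transcription factor of self-renewal, was at 0.12 in serial-transplant cells and 0.03 in 8-day-donor long culture and did not pass (adjusted p = 0.785 and 0.918). By group means, the fall of these genes went with the fall of Gdnf and of the fibroblast list and with the rise of Ret in 8-day-donor cells. By array it did not always. Short-culture replicate 2 had the highest Gdnf (7.10) and fibroblast mean (10.32). Yet its mean over the GDNF-responsive genes, 8.96, was below those of short-culture replicates 1 (9.35) and 3 (9.18). A link between these genes, Gdnf, Ret and the fibroblast list was not tested.

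Adaptors and kinases downstream of RET mostly did not pass, with 26 of 34 measured. In serial-transplant cells 1 rose and 4 fell relative to short culture (median -0.10), and in 8-day-donor cells 1 rose and 3 fell after long culture (median -0.08). Of all probe sets, 8.73% passed in the first of these comparisons (5.15% lower) and 11.3% in the second (5.83% lower). Pik3r1, the regulatory subunit of PI3 kinase, stood at -0.98 and -1.04 in these comparisons, Dok1, a docking protein, at -0.65 and -0.68, and Shc1, an adaptor that binds phosphorylated RET, at -0.47 and -0.57. In 8-day-donor cells Pik3r1, Dok1 and Shc1 passed with each array left out. Pik3r1 was highest on short-culture replicate 2, the array with the highest fibroblast mean, and Dok1 and Shc1 on short-culture replicate 1. The part of fibroblasts in these falls was not tested. Gab1, a scaffold for PI3 kinase, rose by 0.56 and 0.49, but it was lost without any of 4 arrays in both comparisons. Ptpn11, the phosphatase SHP2, fell in serial-transplant cells alone of the 2 comparisons (-0.49, adjusted p = 0.0288, against -0.34 and adjusted p = 0.0667 in 8-day-donor cells), and the difference between long cultures was -0.15 (adjusted p = 0.845). In serial-transplant cells the number that fell was 2 without serial-transplant replicate 1 or short-culture replicate 1, and 0 without serial-transplant replicate 2.

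Of 20 modulators of RET and GFRA and related receptors, 19 were measured. In serial-transplant cells none rose and 2 fell (median -0.12), and in 8-day-donor cells 1 rose and 3 fell (median -0.06). Of all probe sets, 3.58% were called higher and 5.15% lower in serial-transplant cells, and 5.43% and 5.83% in 8-day-donor cells. Gas1, a GPI-anchored protein related to the GFRA family that can bind RET, fell at -1.04 in serial-transplant cells and at -0.71 in 8-day-donor long culture. Sdc3, a heparan sulphate proteoglycan that binds GDNF, fell in 8-day-donor cells (-0.35), and Sorl1, a sorting receptor for GDNF and GFRA1, rose there (0.48), a call lost without long-culture replicate 1 or 3 or short-culture replicate 1. Spry4, already counted above, was the other gene that fell in both. Gas1 was highest on short-culture replicate 2 (10.32) and lowest on serial-transplant replicate 2 (8.64), as was the fibroblast mean. Sdc3 and Spry4 were highest on short-culture replicate 1. The part of fibroblasts in these falls was not tested. Without any of long-culture replicates 1, 2 and 3 or short-culture replicate 1, none of the 3 falls in 8-day-donor cells passed, and without short-culture replicate 2 or 3 there was 1. In serial-transplant cells the falls numbered 0 without serial-transplant replicate 2, and 1 without serial-transplant replicate 1 or short-culture replicates 1 or 3.

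The machinery that makes and attaches the GPI anchor of the co-receptors was measured in full, with 21 of 21 genes. Relative to short culture, Pign, which adds a phosphoethanolamine to the anchor, fell in serial-transplant cells (-0.54, limma adjusted p = 0.0156). It was the only gene called there, beside 8.73% of all probe sets. That call was lost without either serial-transplant array (adjusted p at most 0.168). None passed after long culture of 8-day donors, although 17 of 21 differences were positive (median 0.12, beside -0.04 over all probe sets). Between the long cultures no gene of the 4 lists passed.

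**Figure D4:**
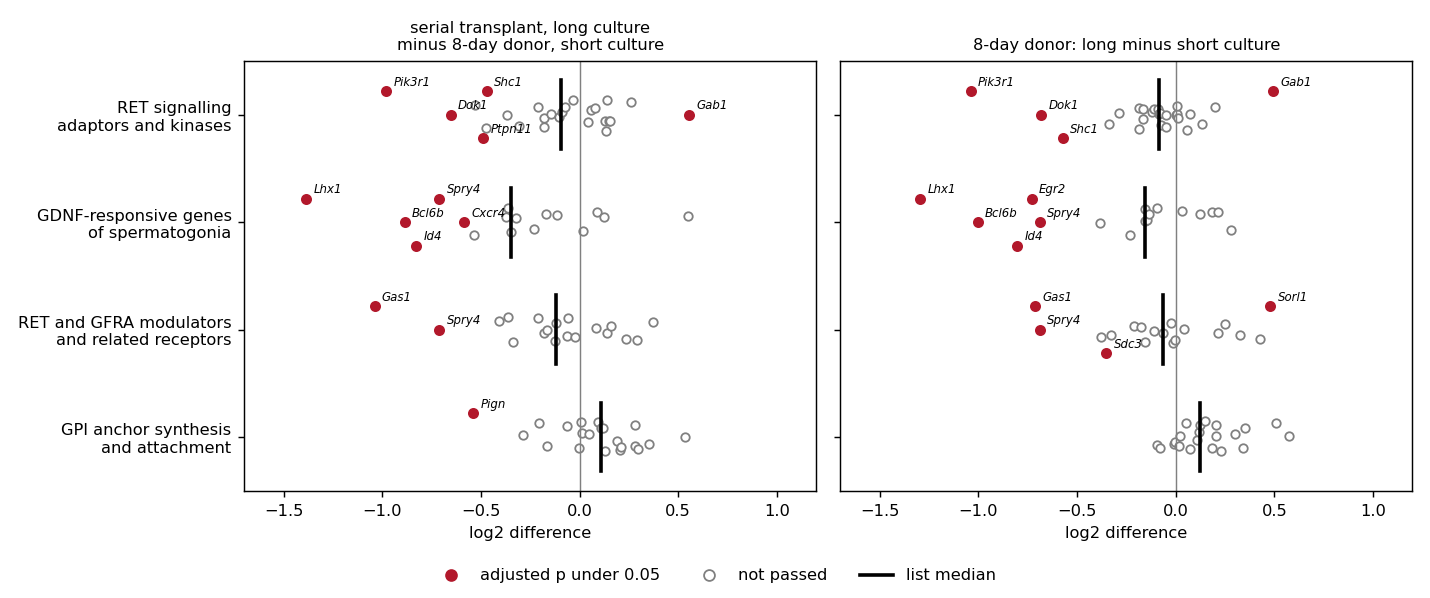
Log2 difference of each measured gene of 4 pathway lists, in serial-transplant long minus 8-day-donor short culture and in long minus short culture of 8-day donors, with filled, named points for an adjusted p under 0.05 and a bar at each list's median. The vertical scatter within a list has no meaning. Among GDNF-responsive genes the filled points are all on the lower side, with Lhx1 lowest at -1.39 and -1.30.

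The 7 members whose mean exceeded 6.94, the median over the probe sets, were each set against 10892 other genes above that median, by the root mean square difference of profiles over the 8 arrays after each was centred on its own mean. Nearest to Ret were Kif11, a mitotic kinesin (0.09 log2), Pde3b, a phosphodiesterase (0.09), and Slc43a1, an amino acid transporter (0.09). Kif11 averaged 10.00, 10.31 and 9.60 in serial-transplant, 8-day-donor long and 8-day-donor short culture, beside 10.83, 11.19 and 10.44 for Ret. Nearest to Gfra2 were Frmd4a (0.10), Anxa2, a membrane-binding annexin (0.11), and Arhgap22, a GTPase-activating protein (0.11). Anxa2 averaged 9.71, 9.63 and 10.50 in the same order. Nearest to Gfra1 were Slc35b4, a nucleotide sugar transporter (0.03), Prpf19, a splicing factor (0.05), and Ube2d2a, a ubiquitin-conjugating enzyme (0.05).

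Nearest to Ncam1 were Sik3, a kinase (0.09), Acvr2a, an activin receptor (0.09), and Zfp445, a zinc finger gene (0.09). Nearest to Gfra3 were Terf2, which encodes a telomere-binding protein, Mbtps1, a protease, and Nacc1, all at 0.05 to 0.07. Nearest to Gfra4 were Ssr1, Nbeal1 and Wwox, at 0.03 for each. Nearest to Nrtn were the probe sets annotated to Mir326 (0.07), Mir320 (0.08) and Sox1 (0.08). With 10892 candidates and 8 arrays, close profiles arise readily, so these names describe the arrays only.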

How the data were processed

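RNA from 8 samples was put on Affymetrix expression arrays (per the labels' protocols). Values were used as deposited, in log2 units. The submitters' processing notes, used here as a list of names only, give Partek 6.4 and RMA. Of 35557 rows, 6614 in the consecutive run of identifiers before the first named probe set were taken to be controls and left out, an inference from the numbering. Symbols come from the platform annotation, updated by gene number through RefSeq (GRCm38.p6), where 21698 of 21789 probe sets with 1 symbol were found. A gene was represented by its brightest probe set. No columns were left unused. No pair of arrays held identical values.

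Differences come from limma 3.58.1 (R 4.3.3), fitted with lmFit and eBayes to all 8 arrays with a coefficient for each group. The tests are two-sided, with 5 residual plus 6.28 prior degrees of freedom. Calls use Benjamini-Hochberg adjusted p under 0.05, without a fold minimum. Errors are SE from limma or SD. The number of arrays limits the precision. The fit was also run on simulated data with independent noise for each row and array. Deviations shared by the rows of an array were not simulated, so that run does not bear on the calls here. The members, the 4 pathway lists and the 8 marker lists were chosen with earlier results of these data known. Named besides the members were at most 4 genes per list with the smallest p among those that passed, and the 3 genes with the closest profile to each member above the median. Etv5, Ptpn11, Cxcr4, Egr2 and Spry4 of the pathway lists, and Lum, Thy1, Amh, Fshr, Wt1, Sox9, Nr5a1, Acta2, Myh11, Sox10, Mbp, Csf1r, Adgre1, Cd68, Kit, Sohlh1 and Sohlh2 of the marker lists, were partly chosen after their values were seen. Alternatives were trend and robust eBayes, array weights, fits of 2 groups alone, dim probe sets left out, quantile normalization, median centring, control rows kept, a gene's probe sets averaged (which cannot alter the members), the replicate block and each array left out. For the lists, leaving out arrays was added after seeing the data.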

Additional observations from a re-analysis of the deposited data

How the results depend on the processing

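Over all probe sets, the count of calls between long and short culture of 8-day donors was 5078 with array weights and 1542 with control rows kept, against 3260, and it ran from 1085 (without long-culture replicate 3) to 3195 with an array left out. Long-culture replicate 1 left out gave 1383. In the members the count was 1 with control rows kept and ran from 1 to 3 with an array left out. For serial-transplant against short-culture cells, a fit of these groups alone gave 1252 probe sets and 0 members, control rows kept gave 1079 and 0, and eBayes with trend and robust gave 1 member, against 2528 and 2. With an array left out these ran from 66 (without serial-transplant replicate 2) to 2817 and from 0 to 2, and serial-transplant replicate 1 left out gave 1528. Between the long cultures 22 probe sets passed with array weights, 15 in a fit of these groups alone and 4 with the replicate block, and 0 with any array left out. Where 1 serial-transplant array was left, it was assumed to vary like the other groups.

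With median centring the share of calls that were higher was 59.7% in 8-day-donor cells, against 48.3% as deposited, and 51.1% in serial-transplant against short-culture cells, against 41.0% as deposited. Sign changes touched only values that did not pass. Pspn was at 0.0025 with centring and 0.025 with quantile normalization between long and short culture, and at 0.013, 0.020 and 0.023 with centring, quantile normalization and array weights for serial-transplant against short culture. Between the long cultures it was at -0.0057 with quantile normalization and -0.0060 with the replicate block, Gfra2 was at -0.064 with the block, and Artn at 0.051 with array weights. Gfra1 was at -0.024 with array weights and -0.049 with quantile normalization for serial-transplant against short culture. With an array left out, Ncam1 (-0.036 to 0.10) and Pspn (-0.20 to 0.073) changed sign between long and short culture, Artn (-0.26 to 0.19), Pspn (-0.10 to 0.13) and Gfra2 (-0.089 to 0.12) between the long cultures, and Gfra1 (-0.063 to 0.11), Artn (-0.37 to 0.087) and Pspn (-0.18 to 0.088) between serial-transplant and short culture. The cause was not tested.

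Same-numbered 8-day-donor arrays correlated in their deviations at 0.08, 0.18 and 0.10, and long-culture replicate 3 correlated best with short-culture replicate 1 (0.25), so the numbers were not taken to pair the samples. With the replicate block, 2754 probe sets and 3 members were called between long and short culture, and 2467 and 2 between serial-transplant and short culture, where Gfra3 passed (adjusted p = 0.0468) and Ncam1 did not (0.0935). Artn and Pspn have no value when dim probe sets are left out. Signals near or below the median of all probe sets, among them Gdnf, limit what can be read from those genes.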
